A study of Sus scrofa with 9 samples.

Results

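The 10 genes described here are regulators of vascular calcification, the laying down of calcium phosphate mineral in the artery wall. They were TNFRSF11B, TNFSF11, SPP1, BMP2, BMP4, RUNX2, SOX9, MGP, ALPL and ENPP1, chosen by name from their known roles, with earlier results of these data known. All 10 names had a single entry among the 21357 genes of the deposited table.

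The samples were abdominal aortas of Tibetan minipigs, all male, sequenced as RNA with 3 libraries in each of 3 groups. NC pigs had a normal diet for 24 weeks and are labelled normal control. H8 pigs had a high-fat diet for 8 weeks and are labelled hypercholesterolemia, and H24 pigs had that diet for 24 weeks and are labelled atherosclerosis. The methods of the study describe the 24-week groups, in which 3 of 5 pigs per group were sequenced. Those pigs entered at 3 to 4 months of age, and the high-fat diet of the atherosclerosis group held added shortening, cholesterol and egg yolk powder. No 8-week group on the normal diet was analysed here, so in H8/NC the diet and the length of feeding, and with it the age of the pigs, cannot be told apart. H24/H8 compares feeding times and likewise ages.

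Calcification of an artery uses much of the machinery of bone. Bone morphogenetic proteins act through SMAD proteins, and the transcription factors RUNX2 and SOX9 steer cells towards bone or cartilage. Pyrophosphate blocks the growth of mineral crystals. It is made from ATP outside the cell by ENPP1 and broken down by the tissue-nonspecific alkaline phosphatase ALPL. Matrix Gla protein, from MGP, and osteopontin, from SPP1, are matrix proteins that hold mineral growth back, and SPP1 is also a product of activated macrophages. RANKL, from TNFSF11, drives the formation of osteoclasts, the cells that resorb bone, through its receptor RANK, and osteoprotegerin, from TNFRSF11B, is the decoy receptor that captures it.

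The total count of a library was 44094263 to 75787978, and the lowest was H24 replicate 2. The 10 smooth muscle markers summed to between 8383 and 14245 FPKM (fragments mapped to a gene, scaled to the length of its exons and to the depth of the library) in 8 libraries, as the labelled tissue would have. H24 replicate 3 stood apart at 1789 FPKM, and its 10 macrophage markers summed to 1623 FPKM. In the other libraries the macrophage sum was 23.1 to 26.9 FPKM in NC, 138, 26.5 and 77.2 FPKM in H8 replicates 1 to 3, and 244 and 154 FPKM in H24 replicates 1 and 2. The adipocyte markers, which bear on fat around the vessel, summed to 12.5 to 38.6 FPKM in NC, 2.24 to 2.58 FPKM in H8 and 4.18 to 19.3 FPKM in H24. By its macrophage sum H8 replicate 2 stood apart from the other H8 libraries, within the range of NC. In bulk tissue, more cells of a type and more RNA per cell cannot be told apart, for the members as for these markers. The part of cell makeup in the results below was not tested, and values without H24 replicate 3 or H8 replicate 2 are given beside the results that moved most.

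**Figure D1:**
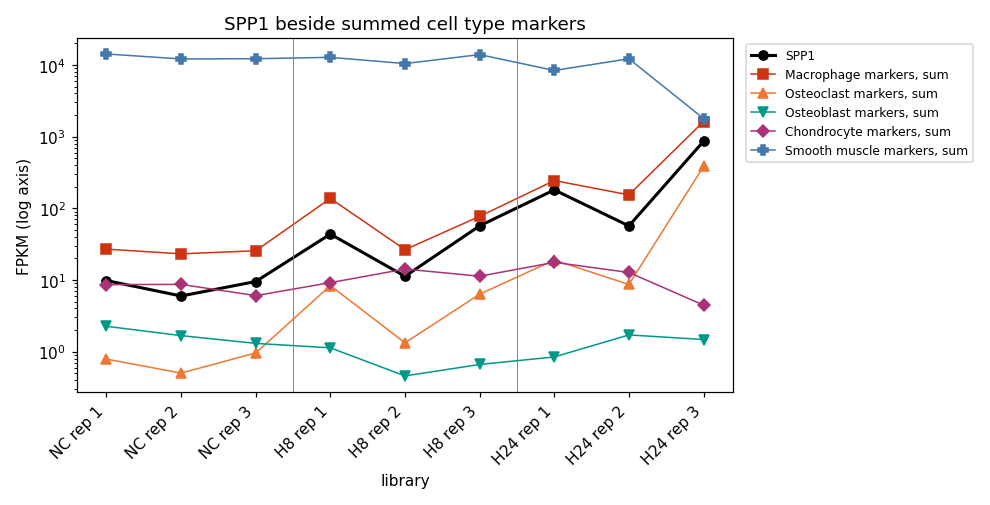
Level of SPP1 and summed levels of 5 lists of cell type markers in each library, in FPKM on a log axis; lines only join the points of one list, and grey lines divide the groups. SPP1, the macrophage sum and the osteoclast sum are all highest in H24 replicate 3 (861, 1623 and 383 FPKM), where the smooth muscle sum is lowest.

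In the normal aorta the members spanned the whole range of expression. MGP had a mean of 2211 FPKM and ranked between 9 and 14 of all genes in the NC libraries, among the most abundant transcripts of the tissue. SPP1, BMP4, TNFRSF11B, ENPP1 and BMP2 followed at means of 8.43, 8.39, 6.87, 4.43 and 2.85 FPKM, and neighbours in that order overlapped between libraries. RUNX2, ALPL, SOX9 and TNFSF11 had means of 0.175, 0.0687, 0.0302 and 0.00905 FPKM, again with overlap between neighbours. The gap between MGP and SPP1, and that between BMP2 and RUNX2, were the places where libraries of neighbours did not overlap. The order was the same in H8, where the levels of SPP1 and BMP4 overlapped and those of TNFRSF11B and ENPP1 did not. In H24 the order was MGP and SPP1, each apart from the next, then TNFRSF11B, ENPP1, BMP4, RUNX2 and BMP2 with overlap between neighbours, and last ALPL, SOX9 and TNFSF11, apart from BMP2 and overlapping each other.

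Most members that changed did so in H24. Differences were tested on the counts with edgeR's quasi-likelihood test over all genes with a mean of at least 0.1 FPKM, and a gene was called where p was under 0.05 without adjustment and the log2 fold change was above 1 or below -1. In H24/NC, 8 members were tested, of which TNFRSF11B, SPP1, RUNX2 and ENPP1 were higher and BMP2 was lower, whereas 9.95% of all tested genes were higher and 1.52% were lower. In H8/NC, 8 were tested and SPP1 alone was higher, against 5.11% of all tested genes, and no member was lower, against 2.27%. In H24/H8, 9 were tested, with the same 4 genes higher and BMP2 lower as in H24/NC, against 7.22% higher and 3.05% lower among all tested genes. Levels that did not overlap between the groups were found for 3 members higher and 0 lower in H24/NC (12.8% and 7.8% of all tested genes), for 1 higher and 0 lower in H8/NC (6.91% and 15.9%), and for 3 higher and 1 lower in H24/H8 (15.5% and 6.31%). When H24 replicate 3 was left out, 3 members were higher and 0 lower in H24/NC (6.49% and 1.28% of all tested genes), and 2 were higher and 1 lower in H24/H8 (3.75% and 2.5%). Without H8 replicate 2, 2 were higher and 0 lower in H24/H8 (3.73% and 1.67%), and SPP1 alone was higher in H8/NC (4.11%). The comparisons share libraries, so these calls are not independent of each other. The median log2 fold change of the tested members was 1.87 in H24/NC, 0.41 in H8/NC and 1.38 in H24/H8, and that of all tested genes was 0.01, 0.02 and 0.04.

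No member passed an adjusted p under 0.05 in edgeR's test in any comparison. Among all tested genes that threshold was passed by 0 in H24/NC (0% higher and 0% lower, 2055 genes with an unadjusted p under 0.05), by 2 higher and 2 lower in H8/NC (0.014% each) and by 2 higher and 0 lower in H24/H8 (0.0135% and 0%). DESeq2, a second count model run on the same genes, passed TNFRSF11B, SPP1 and RUNX2 in H24/NC and in H24/H8, and SPP1 in H8/NC. It also passed 879 higher and 75 lower of 14828 tested genes in H24/NC. In H8/NC it passed 445 and 171 of 14336, and in H24/H8 447 and 203 of 14788.

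**Figure D2:**
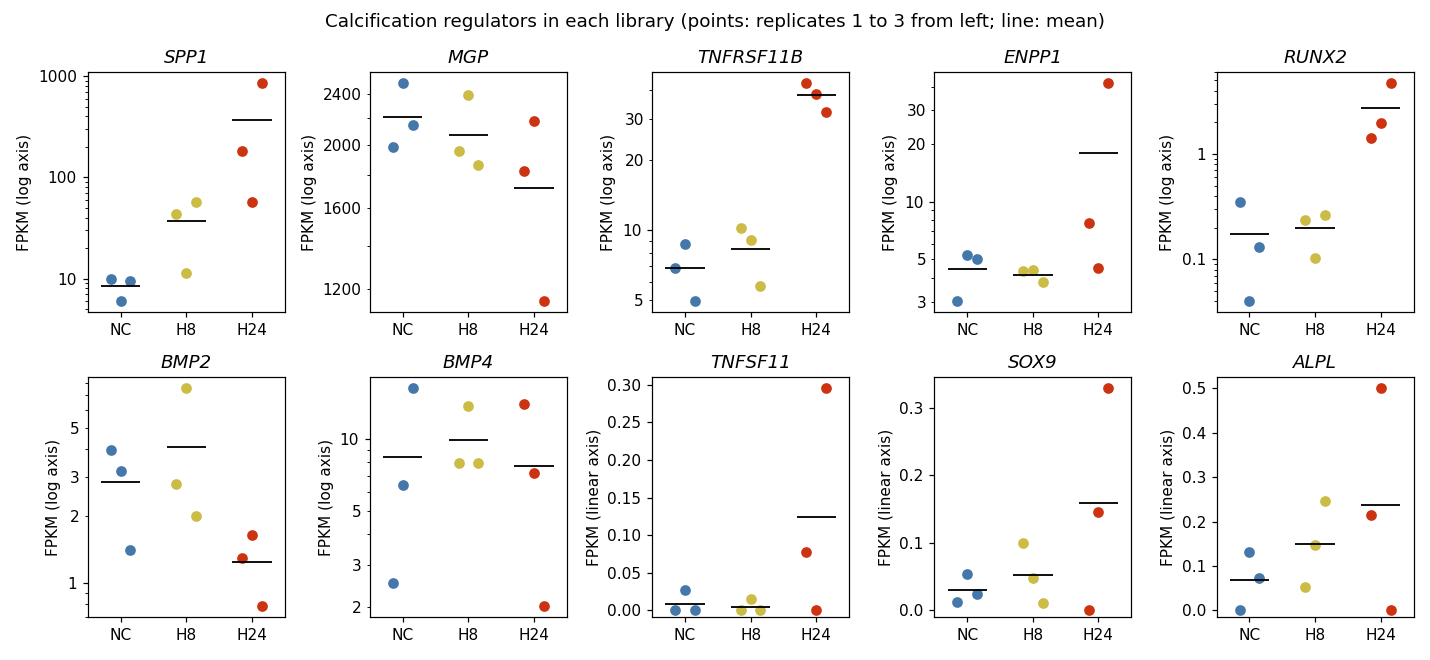
Level of each member in each library in FPKM, with 3 points per group for replicates 1 to 3 from left and a line at the group mean; 7 panels have a log axis and 3, for the rarest members, a linear axis. The 3 H24 points of TNFRSF11B and of RUNX2 lie above all other points of their gene, and those of BMP4 and MGP overlap the other groups.

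**Figure D3:**
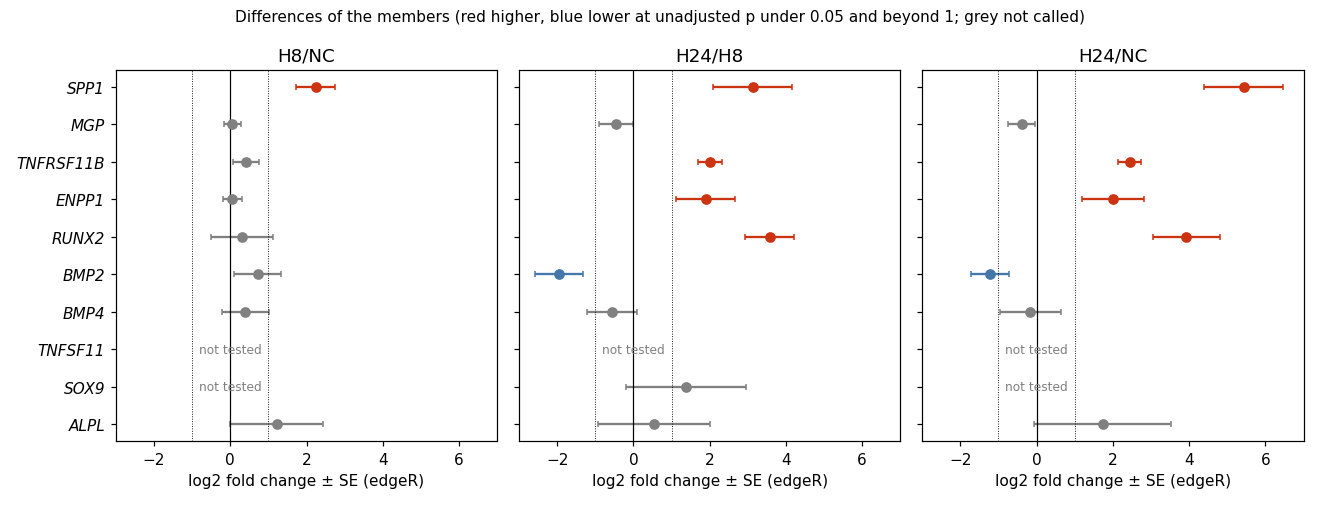
Log2 fold change of each member with its standard error in the 3 comparisons, from edgeR; dotted lines mark a log2 fold change of 1 in either direction, red points were called higher, blue points lower, and grey points were not called. TNFRSF11B has the narrowest error among the called members of H24/NC (2.44 ± 0.30), and SPP1 the largest difference (5.43 ± 1.04).

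TNFRSF11B, the osteoprotegerin gene (ENSSSCG00000027762, Sscrofa11.1 chr4:19869584-19878269, plus strand), was 5.54 times as high in H24 as in NC by the ratio of the means. Its level was 6.89, 8.76 and 4.95 FPKM in NC replicates 1 to 3, 10.2, 9.07 and 5.74 FPKM in H8 replicates 1 to 3, and 43.1, 38.7 and 32.2 FPKM in H24 replicates 1 to 3. The H24 libraries lay above the other 6, and H8 overlapped NC. The means were 6.87 ± 1.91, 8.33 ± 2.31 and 38.0 ± 5.47 FPKM (SD, n = 3 each) in NC, H8 and H24. The log2 fold change was 2.44 ± 0.30 (SE) in H24/NC (edgeR, adjusted p = 0.127) and 2.0 ± 0.31 in H24/H8 (edgeR, adjusted p = 0.286), and 0.42 in H8/NC, not called. Unlike the macrophage sum, the level of TNFRSF11B was lowest among the H24 libraries in replicate 3, and without that library the H24/NC value was 2.54 with an adjusted p of 0.00851 (edgeR).

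TNFSF11, the RANKL gene (ENSSSCG00000009429, chr11:24466586-24505422, minus strand), was close to the limit of detection. It had 0, 9 and 0 counts in NC, 0, 4 and 0 in H8 and 20, 0 and 70 in H24, so that 5 of 9 libraries held none. A count of 0 allows up to 3 counts, or 0.0396 to 0.0680 CPM (counts scaled to library depth), a limit that covers counting error only. The gene fell below the filter in every comparison, and with no filter its log2 fold change was 3.46 ± 2.10 in H24/NC (edgeR, adjusted p = 0.547) and 4.22 ± 2.19 in H24/H8 (edgeR, adjusted p = 0.469). Neither was called. Per length, the ligand reached at most 0.917% of the level of its decoy receptor, in H24 replicate 3.

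SPP1, the osteopontin gene (ENSSSCG00000009216, chr8:131077026-131085759, minus strand), was the only member called in all 3 comparisons, and among the tested members it moved furthest in H8/NC and H24/NC. Its level was 9.81, 5.97 and 9.51 FPKM in NC, 43.6, 11.2 and 56.9 FPKM in H8 and 181, 56.8 and 861 FPKM in H24. Every H8 and H24 library lay above every NC library, while H24 replicate 2 was within the range of H8. In the order of all genes by level, SPP1 stood between places 4168 and 5819 in NC, between 641 and 3317 in H8, and at places 200, 709 and 38 in H24. The difference on the log2 scale was 2.25 ± 0.51 in H8/NC (edgeR, adjusted p = 0.187), 3.13 ± 1.03 in H24/H8 (edgeR, adjusted p = 0.341) and 5.43 ± 1.04 in H24/NC (edgeR, adjusted p = 0.132). Like the macrophage sum, it was lowest within H8 in replicate 2 and highest within H24 in replicate 3, but within H8 it was highest in replicate 3 and that sum in replicate 1. Without H24 replicate 3 the difference was 3.78 in H24/NC, with an adjusted p of 0.00942 (edgeR), and 1.51 in H24/H8, where the call was lost. Without H8 replicate 2 it was 2.72 in H24/H8, where the call was also lost, and 2.65 in H8/NC, with an adjusted p of 0.0308 (edgeR).

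MGP (ENSSSCG00000037697, chr5:57664914-57670632, plus strand) stayed among the most abundant transcripts in all groups. Its level was 1989, 2496 and 2148 FPKM in NC, 1963, 2390 and 1864 FPKM in H8 and 1827, 2182 and 1151 FPKM in H24. The groups overlapped, and the lowest library was H24 replicate 3, the one with the lowest smooth muscle sum. Log2 fold changes were -0.39 ± 0.35 in H24/NC (edgeR, adjusted p = 0.676), 0.05 in H8/NC and -0.45 in H24/H8, none of them called.

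Set against each other, the levels of these matrix protein genes came close in a single library of H24. The level of SPP1 was 0.493%, 0.239% and 0.443% of that of MGP in NC replicates 1 to 3, 2.22%, 0.470% and 3.05% in H8, and 9.89%, 2.60% and 74.8% in H24. The mean log2 ratio was -8.06 in NC and -3.01 in H24, a difference of 5.06 with no overlap between the groups. It was 3.76 without H24 replicate 3. The exact two-sided permutation test gave p = 0.1, the smallest that 3 libraries against 3 can give, and 0.75 after adjustment over the 15 ratio tests.

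BMP2 (ENSSSCG00000039442, chr17:15749836-15761194, plus strand), a ligand that promotes bone formation, was lower in H24. Its level was 3.95, 3.19 and 1.41 FPKM in NC, 2.78, 7.56 and 2.01 FPKM in H8 and 1.29, 1.65 and 0.782 FPKM in H24. The H24 libraries lay below all H8 libraries, whereas NC replicate 3 fell within the H24 range. H8 replicate 2 had the highest level of all. The log2 fold change was -1.22 ± 0.50 in H24/NC (edgeR, adjusted p = 0.348) and -1.95 ± 0.64 in H24/H8 (edgeR, adjusted p = 0.341). The H24/NC call held in 8 of 15 alternatives and was lost without any one of NC replicate 1, NC replicate 2, H24 replicate 1 and H24 replicate 3, at values of -0.94 to -1.22. In H24/H8 the call held in 13 of 15 alternatives and was lost without H24 replicate 1 and without H8 replicate 2, where the value was -1.06. The fibroblast markers were also highest in H8 replicate 2, with a sum of 879 FPKM against 241 to 628 FPKM in the other 8 libraries.

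BMP4 (ENSSSCG00000005045, chr1:183413653-183422839, minus strand), a related ligand, varied more within groups than between them. The level ran from 2.51 to 16.2 FPKM within NC, from 7.88 to 13.7 FPKM within H8 and from 2.01 to 13.9 FPKM within H24. No comparison was called, the log2 fold changes being -0.16 ± 0.81 in H24/NC, 0.39 in H8/NC and -0.56 in H24/H8. In H24/NC the sign turned without NC replicate 3 (0.72) and without H24 replicate 3 (0.30). The ratio of BMP2 to BMP4 did not separate the groups either, with a difference in mean log2 ratio of -1.01 between H24 and NC (exact permutation test, p = 0.5).

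RUNX2 (ENSSSCG00000001710, chr7:40106513-40349398, plus strand), the transcription factor that directs osteoblast formation, was scarcely detected in NC and H8 and was higher in H24. Its level was 0.353, 0.0402 and 0.132 FPKM in NC, 0.238, 0.102 and 0.262 FPKM in H8 and 1.41, 1.97 and 4.73 FPKM in H24, from 8 to 54 counts in the NC and H8 libraries and 203 to 667 counts in H24. The H24 libraries lay above all others, and H8 overlapped NC. The log2 fold change was 3.92 ± 0.88 in H24/NC (edgeR, adjusted p = 0.135) and 3.57 ± 0.65 in H24/H8 (edgeR, adjusted p = 0.336). Both calls held in 15 of 15 alternatives, and without H24 replicate 3 the values were 3.24 and 2.92. Limma on log2(FPKM + 1), a scale that understates the changes of low genes, gave 1.56 and 1.52. RUNX2 overlaps SUPT3H, a gene on the other strand, and whether the counting used the strand is not given in the sources used here. SUPT3H was at 4.23 to 6.85 FPKM in all 9 libraries, and its range in H24 overlapped that in NC.

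SOX9 (ENSSSCG00000017251, chr12:8641629-8647764, minus strand), the factor that directs cartilage formation, stayed below 0.4 FPKM in every library. It had 5, 20 and 8 counts in NC, 34, 16 and 4 in H8 and 0, 32 and 99 in H24. It passed the filter only in H24/H8, where the log2 fold change of 1.38 ± 1.58 was not called, and with no filter the H24/NC value was 2.29 ± 1.55 (edgeR, adjusted p = 0.568). Without H24 replicate 1, the library with no count, that value was 2.89 and called. SOX9 passed the filter in that fit and in H24/H8 through H24 alone, its means being 0.0302 FPKM in NC and 0.0527 FPKM in H8. The filter thus favours a higher value in both, and no weight is put on this call. The mean log2 ratio of RUNX2 to SOX9 was 4.87 in H24 and 1.90 in NC, with overlap between the groups (exact permutation test, p = 0.3).

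ENPP1 (ENSSSCG00000004193, chr1:31722508-31797460, minus strand), the enzyme that makes pyrophosphate, was called higher in H24, but 1 library carried the difference. Its level was 3.02, 5.25 and 5.02 FPKM in NC, 4.33, 4.38 and 3.79 FPKM in H8 and 7.72, 4.51 and 41.8 FPKM in H24. H24 replicate 2 was within the NC range, and H24 replicate 3 was more than 5 times as high as any other library. The log2 fold change was 2.0 ± 0.82 in H24/NC (edgeR, adjusted p = 0.346) and 1.90 ± 0.78 in H24/H8 (edgeR, adjusted p = 0.354). Without H24 replicate 3 these were 0.42 and 0.36, and neither was called. Each call held in 8 of 15 alternatives. With any single NC library left out of H24/NC the value stayed at 1.78 to 2.17, and with any single H8 library left out of H24/H8 at 1.79 to 2.0, but none of these was called.

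ALPL (ENSSSCG00000032607, chr6:79589691-79649644, plus strand), the phosphatase that removes pyrophosphate, was close to the limit of detection. It had 0, 34 and 16 counts in NC, 12, 34 and 62 in H8 and 48, 74 and 0 in H24, and its highest level was 0.501 FPKM in H24 replicate 2. Log2 fold changes were 1.73 ± 1.79 in H24/NC, 1.21 in H8/NC and 0.53 in H24/H8, none of them called. H24 replicate 3, with the highest ENPP1, held no ALPL count. The log2 ratio of ALPL to ENPP1 differed by -0.31 between H24 and NC, with overlap (exact permutation test, p = 1).

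Other genes of the same pathways were taken as 5 lists. Of all tested genes, 9.95% were higher and 1.52% lower in H24/NC, 5.11% and 2.27% in H8/NC, and 7.22% and 3.05% in H24/H8. Without H24 replicate 3 these shares were 6.49% and 1.28% in H24/NC and 3.75% and 2.5% in H24/H8. Without H8 replicate 2 they were 4.11% and 2.06% in H8/NC and 3.73% and 1.67% in H24/H8. The counts of the lists stand against these shares. The list of RANK pathway and osteoclast genes moved most. Of its 20 genes, all tested in H24/NC, 14 were higher and 1 was lower, with a median log2 fold change of 2.27. Only 18 of them passed the filter over NC and H8, so some were tested in H24/NC and H24/H8 through their H24 levels. For such genes the filter itself favours a call of higher, and the counts and medians of both comparisons lean that way. The smallest p-values were those of CSF1R, the receptor for macrophage colony-stimulating factor (3.46 ± 0.68), TREM2, a receptor of macrophages and osteoclasts (5.92 ± 1.23), and CALCR, the calcitonin receptor of osteoclasts (6.14 ± 1.3). All were still called without H24 replicate 3, at 2.29, 3.87 and 3.95. CALCR was at 0.0201 to 0.0598 FPKM in NC, below the filter of 0.1 FPKM. It passed through H24, where it was at 0.918, 0.345 and 7.24 FPKM. LGR4, an alternative receptor for RANKL, was lower (-1.38 ± 0.48), but that call was lost without NC replicate 3 or H24 replicate 3. In H8/NC, 7 of 18 tested genes were higher and none was lower, with a median of 0.90. ACP5, the tartrate-resistant acid phosphatase of osteoclasts, was higher at 8 weeks (3.27 ± 0.67), as were TREM2 (3.54 ± 0.91) and TNFRSF11A, which encodes RANK (1.55 ± 0.41). In H24/H8, 12 of 20 were higher and 0 lower, with a median of 1.85, among them DCSTAMP, needed for the fusion of osteoclast precursors (5.11 ± 1.51), TCIRG1, a proton pump subunit (1.84 ± 0.53), and TNFSF10, the ligand TRAIL, which osteoprotegerin also binds (1.87 ± 0.56). DCSTAMP was 1.70 and still called without H24 replicate 3, and TCIRG1 was 0.96 and not called.

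These osteoclast genes depended on H24 replicate 3 in number and size, and calls over all tested genes also fell without it. ACP5 was at 0.444, 0.271 and 0.521 FPKM in NC, 5.66, 0.791 and 4.68 FPKM in H8 and 12.1, 5.24 and 275 FPKM in H24. All NC libraries lay below all others, and H8 replicate 2 was again the lowest of its group. Without H24 replicate 3, 8 of 19 tested list genes were higher and 0 lower in H24/NC, against 6.49% and 1.28% of all tested genes. In H24/H8, 2 were then higher, against 3.75%. Without H8 replicate 2, 8 of 18 were higher in H8/NC and 5 of 20 in H24/H8, against 4.11% and 3.73% of all tested genes. The list shares CSF1R with the macrophage markers, of which 10 of 10 were higher in H24/NC, 6 of 10 in H8/NC and 10 of 10 in H24/H8. Of these markers, 9 of 10 were higher in H24/NC and 2 of 10 in H24/H8 without H24 replicate 3, and without H8 replicate 2, 8 of 10 were higher in H8/NC and 1 of 10 in H24/H8. Of the 7 osteoclast markers, 6 had a row, and all of these belong to the RANK list as well. In H24/NC, DESeq2 called 9 of the 20 list genes higher and 1 lower, against 10.4% and 1.98% of all tested genes. It gave no p for 6 of the 20. Of the 6 osteoclast markers it called 1 higher and gave no p for 5.

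In the osteoblast and chondrocyte list no gene was called in H24/NC. Of its 28 genes with a row, 20 were tested there, with 0 higher and 0 lower by edgeR, 0 by DESeq2 and 1 higher without H24 replicate 3, and the median was -0.06. The osteoblast markers with a row, IBSP, DMP1, MEPE and PHEX, summed to 1.3 to 2.25 FPKM in NC, 0.458 to 1.13 FPKM in H8 and 0.842 to 1.71 FPKM in H24, and IBSP, bone sialoprotein, was below 0.1 FPKM in every library. SP7 and BGLAP, which define osteoblasts, had no row and were not analysed here. COL2A1, the collagen of cartilage, was at 0.0309 to 0.190 FPKM over the 9 libraries, but other chondrocyte markers were higher. The 7 chondrocyte markers summed to 6.04 to 8.67 FPKM in NC and 9.18 to 14.2 FPKM in H8. In H24 replicates 1 to 3 they summed to 17.6, 12.7 and 4.45 FPKM. ACAN, one of them, was at 1.66 to 5.38 FPKM in NC, 3.57 to 6.97 FPKM in H8 and 14.7, 10.3 and 0.933 FPKM in H24. In H8/NC, 4 of 21 tested genes were higher and 0 lower, with a median of 0.55. They were the type I collagen chains COL1A1 (1.02 ± 0.23) and COL1A2 (1.16 ± 0.28), the homeobox gene MSX1 (1.22 ± 0.35) and SOX5 (1.07), the last named after its value was seen. Without H8 replicate 2, 1 of 20 was higher, and COL1A1 (0.96) and COL1A2 (0.80) were among those lost. COL1A1 was also lost without NC replicate 1 or H8 replicate 3, and MSX1 (0.99) without NC replicate 3. In H24/H8, HAPLN1, a link protein of cartilage matrix (-1.56 ± 0.39), and MSX2 (-1.60 ± 0.62) were lower and no gene of 22 was higher. Over all tested genes 3.05% were lower and 7.22% higher there. The MSX2 call was lost without any single H8 library and without H24 replicate 1, at values of -1.46 to -1.77. In this comparison 1 gene of 21 was higher and 3 lower without H24 replicate 3, and 0 were higher and 1 lower without H8 replicate 2.

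Among 31 BMP pathway genes, 29 were tested in H24/NC, with 3 higher, 0 lower and a median of 0.11. That share is close to the 9.95% of all tested genes that were higher. ACVRL1, a type I receptor of endothelial cells, was at 1.80 ± 0.45, and CHRD, whose product chordin captures BMP ligands, was at 1.66 ± 0.49. Both were called without H24 replicate 3, at 1.12 and 2.05. CHRDL1, a chordin-like antagonist, was the 1 gene of 28 that was higher in H8/NC (1.48 ± 0.49), and it was not called without NC replicate 1, NC replicate 2 or H8 replicate 2, the last giving 0.69. The share of this list in H8/NC lay below the 5.11% of all tested genes, and without H8 replicate 2, 0 genes were higher and 1 lower. In H24/H8, 4 of 29 genes were higher and 2 lower, with a median of -0.10, against 7.22% and 3.05% of all tested genes. With H24 replicate 3 left out, 5 were higher and 1 lower, and without H8 replicate 2, 1 was higher and 0 lower. ACVRL1 was the gene of the list whose H24/H8 call held with each library left out (2.08 ± 0.50). BAMBI, a decoy receptor, was lower (-1.11 ± 0.29), as was NOG, the antagonist noggin (-2.14 ± 0.86). Both of these calls were lost without H8 replicate 2 or H24 replicate 3, and that of NOG in 5 of 6 fits with a library left out, at values of -1.64 to -2.35. SMAD6 (1.06 ± 0.42) and BMP6 (1.08 ± 0.44) were higher, and each lost its call in 4 of 6 fits with a library left out, H8 replicate 2 among them (0.94 and 0.88).

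The list of phosphate, pyrophosphate and calcification inhibitor genes had 26 genes with a row. It also holds GPNMB and CTSZ, which are not phosphate or pyrophosphate genes. Of the 26, 21 were tested, with 4 higher and 0 lower in H24/NC and a median of 0.28. GPNMB, a glycoprotein of macrophages and bone cells, was at 7.22, 4.55 and 7.01 FPKM in NC, 112, 14.2 and 49.6 FPKM in H8 and 120, 56.5 and 2700 FPKM in H24. It was higher in H24/NC (7.25 ± 1.67) and in H8/NC (3.33 ± 0.66), with H8 replicate 2 and H24 replicate 3 at the ends of their groups as for SPP1. The H24/NC value was 3.78, still called, without H24 replicate 3. NT5E, the ectonucleotidase CD73, which turns AMP to adenosine downstream of ENPP1, was at 3.73, 2.72 and 1.59 FPKM in NC, 5.36, 2.60 and 2.84 FPKM in H8 and 18.9, 10.6 and 56.8 FPKM in H24. Its H24 libraries lay above all others, and the log2 fold change was 3.41 ± 0.69 in H24/NC and 2.80 ± 0.64 in H24/H8, or 2.43 and 1.86 without H24 replicate 3. VDR, the vitamin D receptor, was also higher in both (5.51 ± 1.41 and 3.12 ± 0.82, or 4.45 and 2.10 without that library). Its mean in NC, 0.0877 FPKM, lay below the filter, and it passed in H24/NC through its H24 mean of 4.035 FPKM. In H8/NC, 3 of 21 genes of this list were higher, GPNMB, CTSZ (1.07 ± 0.24) and XPR1, a phosphate exporter (1.52 ± 0.60), of which XPR1 was 0.36 and not called without H8 replicate 2 and CTSZ was 0.79 and not called without H8 replicate 1. XPR1 was also lost without any single NC library, at values of 1.44 to 1.57. In H24/H8, 6 of 21 were higher and 0 lower, including the nucleoside transporter SLC29A1 (1.16 ± 0.35). Without H24 replicate 3, 3 were higher, and SLC29A1 was 0.69 and not called. Without H8 replicate 2, 4 were higher. ABCC6, the transporter through which liver cells release ATP for pyrophosphate, had 4 counts in NC replicate 2, 19 in H8 replicate 3 and 0 in the other 7 libraries.

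The receptors and partners of SPP1 and RANKL held 14 genes, of which 13 were tested in H24/NC, with 4 higher, 0 lower and a median of 0.37. MMP9, a gelatinase that cleaves osteopontin, was at 0.352, 0.174 and 0.375 FPKM in NC, 2.39, 1.09 and 1.80 FPKM in H8 and 13.05, 14.7 and 437 FPKM in H24. The 3 groups did not overlap, and the log2 fold change was 2.68 ± 0.41 in H8/NC, 6.26 ± 1.56 in H24/H8 and 9.0 ± 1.79 in H24/NC. The latter values were 2.83 and 5.51, both called, without H24 replicate 3. MMP3, a stromelysin, rose in H24/NC (5.61 ± 1.39) from at most 8 counts per NC library. It passed the filter through H24, with means of 0.00913 FPKM in NC and 0.513 FPKM in H24. ITGB3, a subunit of the integrin that binds osteopontin, was at 2.73 ± 0.74 in H24/NC and at 1.33, still called, without H24 replicate 3. The RANK and osteoclast list holds ITGB3 as well, so this gene counts in both lists. CD44, another osteopontin receptor, was higher in H8/NC (1.19 ± 0.32) and lost the call (0.70) without H8 replicate 2, in which it had its highest level, 70.6 FPKM. In H24/H8, 4 of 13 were higher and 0 lower, among them ITGA4 (3.02 ± 1.2), which was 0.92 and not called without H24 replicate 3 and was also lost without any single H8 library, at values of 2.81 to 3.25. ITGA4 and MMP3, both in that count, had H8 means of 0.0787 and 0.0248 FPKM, below the filter. They passed it through H24, at means of 0.741 and 0.513 FPKM, so the filter favoured their calls. In H24/H8, 2 genes of the list were higher and 1 lower without H24 replicate 3, and 2 were higher and 0 lower without H8 replicate 2.

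**Figure D4:**
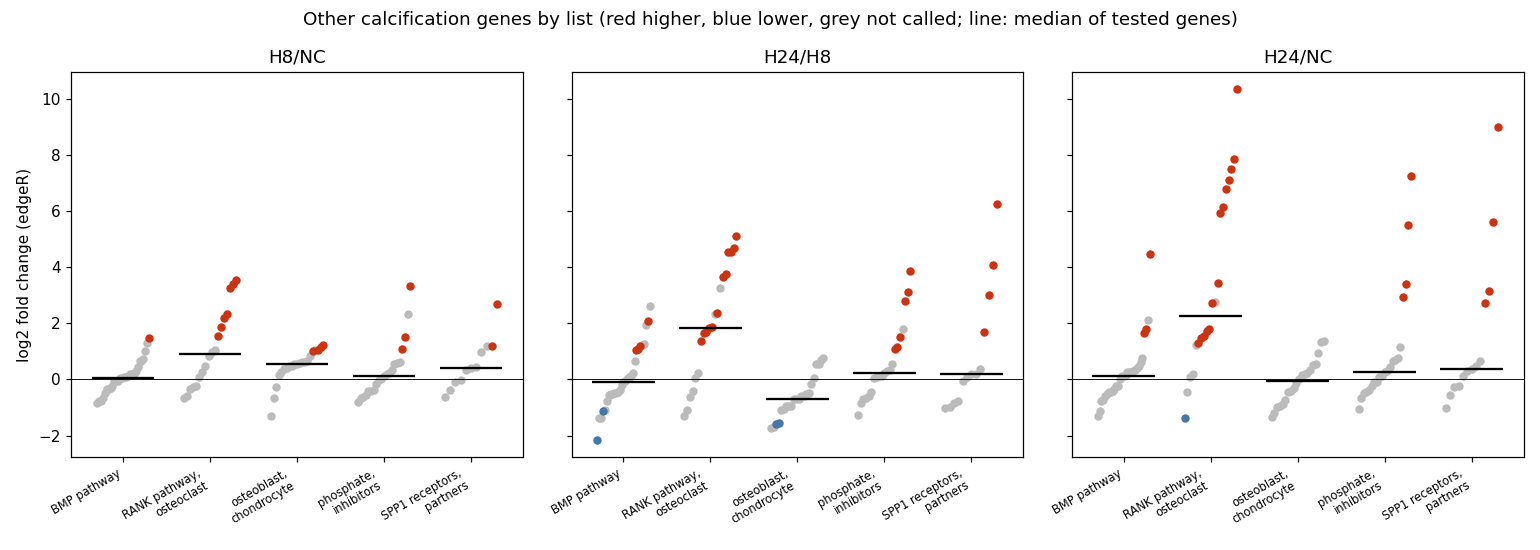
Log2 fold change (edgeR) of each tested gene of 5 lists in the 3 comparisons, sorted within a list, with red for called higher, blue for called lower, grey for not called and a line at the median of the list. In H24/NC the RANK and osteoclast list has 14 red points and a median of 2.27, and the osteoblast and chondrocyte list has none and a median of -0.06.

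For 6 members with a wide range over the 9 libraries and a mean of at least 1 FPKM, the named genes with the most alike profile were sought among 10321 candidates. Likeness was the root mean square difference of log2(FPKM + 0.1), each gene centred on its own mean, and is given with no test, since all profiles share the same 9 libraries. TNFRSF11B was most like VCAN, the proteoglycan versican (0.27), then SERPINE2, a protease inhibitor (0.32), and LUM, the proteoglycan lumican (0.36). VCAN was at 7.61, 5.44 and 3.51 FPKM in NC, 9.32, 7.76 and 5.26 FPKM in H8 and 32.7, 26.4 and 35.2 FPKM in H24, so that it shared with TNFRSF11B a similar height in all H24 libraries. SPP1 was most like GIMAP4 (0.34), ADAM28 (0.38) and CD4 (0.38), each of which peaked in H24 replicate 3. The nearest profiles to ENPP1 were those of MRC1, the mannose receptor of macrophages (0.21), RASGRP3 (0.21) and MGST1 (0.27), with the same single high library. RUNX2 had more distant neighbours, ARHGAP22 (0.53), NCF4, a subunit of the phagocyte oxidase (0.54), and LTC4S, which makes leukotriene C4 (0.57). BMP2 was most like AMIGO2 (0.37), LMCD1 (0.41) and TUSC1 (0.44), and BMP4 was most like AMOTL2 (0.36), FIGN (0.45) and AGTR1, the angiotensin II receptor (0.49). MRC1 is one of the macrophage markers used above, CD4 one of the T cell markers and LUM one of the fibroblast markers.

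**Figure D5:**
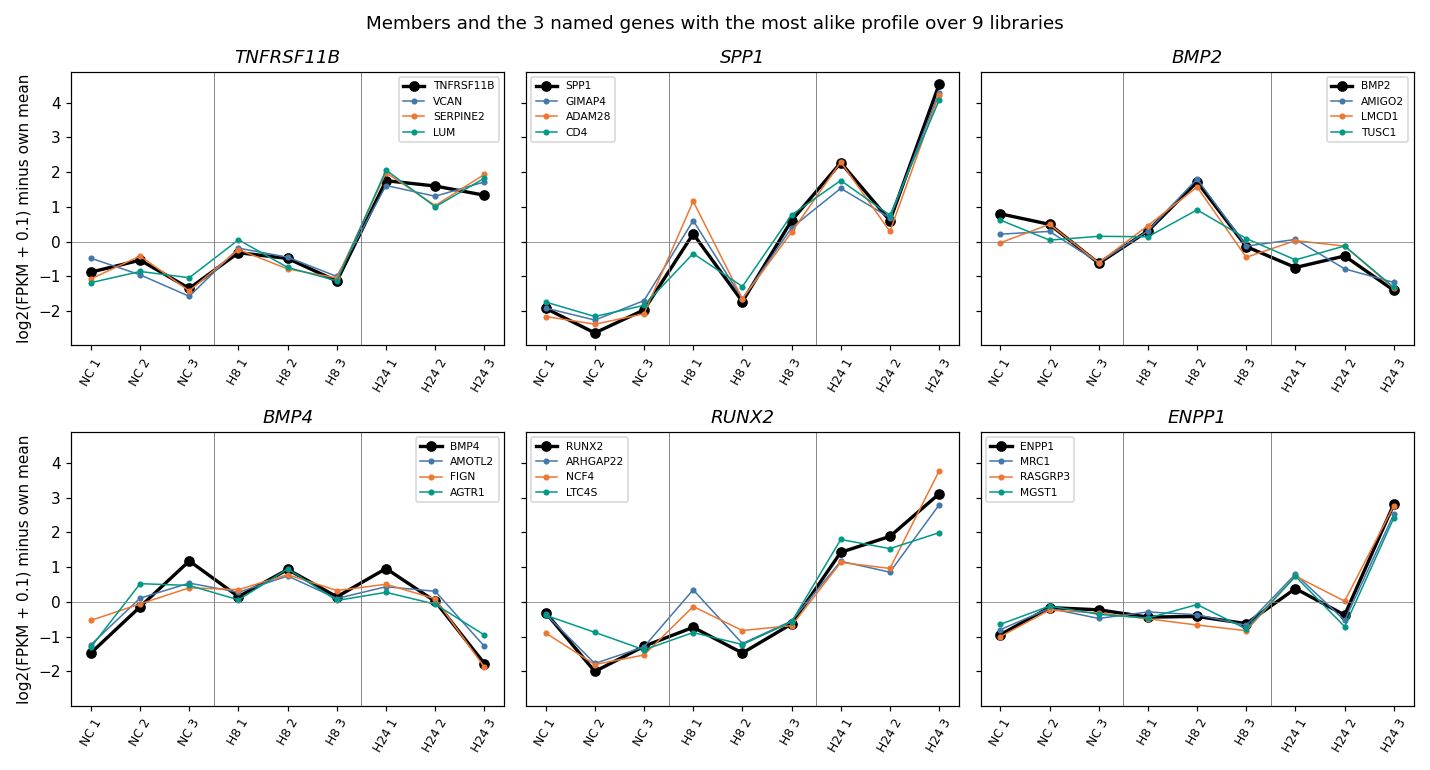
Profiles of 6 members (black) and of the 3 named genes most like each, as log2(FPKM + 0.1) minus the gene's own mean over the 9 libraries; grey lines divide NC, H8 and H24, and the joining lines mark no order of replicates. ENPP1 and SPP1 peak in H24 replicate 3, and TNFRSF11B is at about the same height in all 3 H24 libraries.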

How the data were processed

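RNA of the abdominal aorta was sequenced in 9 libraries, which were grouped by their labels into NC, H8 and H24. Per the labels and the methods of the study, RNA had an integrity number above 7.0, and poly(A) RNA was sequenced in paired ends with a mean insert of 300 bp. The label protocol speaks of an adipose type of RNA, while the tissue labels give the abdominal aorta. The authors mapped reads with HISAT 2.0 to the pig genome (Sscrofa11.1) and made FPKM values with StringTie 1.3.0. The submitters' processing notes also list Bowtie 0.12.2 and the mouse build mm8, with no role given. The deposited table holds, for each gene and library, an FPKM value and an estimated count that is a whole number. How the authors derived the counts, the annotation release and the use of strand are not given in the sources used here. Of the genes, 5119 have only an identifier, and 907 of these were named through a reference table of identifiers.

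The edgeR package (4.0.16, run in R 4.3.3) was applied to the counts after TMM normalization, on the 6 libraries of each comparison and the genes with a mean of at least 0.1 FPKM. A gene was called at a log2 fold change beyond 1 with an unadjusted p under 0.05, as in the study. Adjusted p-values are Benjamini-Hochberg over all tested genes, and the SE is the fold change over the root of the F statistic. Ratios of members used log2 of FPKM + 0.01 and exact two-sided permutation tests, which with 3 libraries against 3 cannot go below 0.1. Nothing says that libraries other than those of the 24-week groups came from separate pigs, so p-values measure the spread between these libraries. No pair of libraries agreed within sampling noise (lowest chi-square per degree of freedom 163.6). The members and gene lists were chosen with earlier results of these data known. Named genes are the members, at most 3 called genes with the smallest p per list, comparison and direction, the 3 most alike genes of members spanning over 2 log2 units, and a few genes given as levels, which were chosen after their values were seen. The fit was checked on simulated counts in which 200 genes were changed. These held no library that stood apart as H24 replicate 3 did, so the check does not cover that feature of the data. Alternatives were DESeq2 1.42.0, upper-quartile scaling, no filter, a filter at 1 FPKM, all 9 libraries in 1 fit, a replicate block, limma 3.58.1 on log2(FPKM + 0.1) and on log2(FPKM + 1), each replicate left out, and rows of 1 name summed. Genes with no row in the table were not analysed here. The values of 1 gene that the rule names are not reported here, though it stays in the counts of its list.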

Additional observations from a re-analysis of the deposited data

How the results depend on the processing

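The calls of TNFRSF11B and RUNX2 in H24/NC and H24/H8 and of SPP1 in H24/NC and H8/NC held in 15 of 15 alternatives. With 1 replicate left out, members called higher in H24/NC numbered 3 to 5 (6.49% to 12.1% of all tested genes). They were 3 without any single NC library and 5, SOX9 among them, without H24 replicate 1. In these fits members called lower in H24/NC numbered 0 to 1 (0.923% to 3.09%), members called higher in H8/NC 1 to 2 (3.96% to 5.58%), and members called in H24/H8 2 to 4 higher (3.73% to 9.56%) and 0 to 1 lower (1.67% to 4.65%). Members lower in H24/NC numbered 0 with all 9 libraries in 1 fit (1.69% of all tested genes), with limma on log2(FPKM + 0.1) (2.12%) and with limma on log2(FPKM + 1) (0.951%), and the lost gene was BMP2. Passing an adjusted p depended on the test: DESeq2 passed 879 higher and 75 lower genes in H24/NC, where edgeR passed 0. Without H24 replicate 3, edgeR passed 290 and 16.

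None of the results that turned in sign was called in edgeR's test with all 6 libraries of its comparison. With 1 replicate left out, the H24/NC value of BMP4 ranged from -0.857 to 0.719, and the H24/H8 value of ALPL from -0.694 to 1.107. In H8/NC the ranges were -0.182 to 1.068 for BMP2, -0.045 to 1.271 for BMP4 (called without NC replicate 3), -0.140 to 1.286 for RUNX2, -0.143 to 0.174 for MGP and -0.174 to 0.216 for ENPP1. Limma gave -0.095 for MGP with either pseudocount, and -0.049 (0.1) and -0.047 (1) for ENPP1. The difference in log2 ratio of TNFSF11 to TNFRSF11B was 0.537 in H24/NC from CPM with 0.5 counts added and -1.337 in H24/H8 with a pseudocount of 0.1. With 1 replicate left out it ranged from -1.674 to 0.925 in H24/NC and from -1.212 to 1.388 in H24/H8. That of ALPL to ENPP1 ranged from -2.116 to 2.327 in H24/NC and from -3.632 to 0.811 in H24/H8, that of BMP2 to BMP4 in H8/NC from -1.261 to 0.821, and that of RUNX2 to SOX9 in H8/NC from -1.064 to 1.114. The cause was not tested.

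Same-numbered libraries of different groups showed little shared deviation over all genes (correlations of -0.092 to 0.101). Those of replicate 2 were all positive, at 0.079 to 0.101. A pairing or batch that moves few genes cannot be told from these correlations. With the replicate number as a block, 3 members were higher and 1 lower in H24/NC (7.51% and 1.69% of all tested genes), 1 was higher in H8/NC (4.46%), and 3 were higher and 1 lower in H24/H8 (5.41% and 3.21%), ENPP1 losing its calls.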
